A study of Saccharomyces cerevisiae with 24 samples.

Results

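Gene expression was compared between 2 budding yeast double mutants that both lack the histone variant H2A.Z, encoded by HTZ1, and differ in which subunit of the SWR1 complex is missing. The 6 arrays labelled htz1Δswc5Δ (3 arrays) and htz1Δswr1Δ (3 arrays) were taken by their labels from the 24 arrays of the study, which profiled 8 strains with 3 independent cultures each. Both strains are Saccharomyces cerevisiae cells with his3Δ1, leu2Δ0, ura3Δ0 and met15Δ0 that carry kanMX4 in place of HTZ1 and of SWR1 or SWC5. They were harvested in mid-log growth in supplemented minimal medium. The paper lists MATa and MATα isolates of both genotypes and does not say which were hybridised. The array values point to MATa cells, with the MATa marker BAR1 at means of 12.05 in htz1Δswr1Δ and 11.65 in htz1Δswc5Δ. They also point to the LYS2 deletion lys2Δ0 in htz1Δswc5Δ, with LYS2 means of 3.42 there and 10.86 in htz1Δswr1Δ. Only 1 listed isolate of each genotype has these features, so that genotype and isolate cannot be told apart in any difference below. The wild-type BY4741 (wt), htz1Δ (also bar1Δ::hyg) and htz1Δswc2Δ arrays, 3 each, were deposited at the same level and entered the same fit, whereas the single mutants swr1Δ and swc5Δ were deposited at other levels and were used only in the last comparison.

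The SWR1 complex is a chromatin remodeller that exchanges H2A in nucleosomes for H2A.Z. Swr1 is its ATPase and the scaffold on which the other subunits assemble, so that no complex forms without it. Swc5 is needed for the exchange reaction, but a complex without Swc5 still assembles and still reaches chromatin. The pair of double mutants therefore sets a strain with no complex beside a strain with an inactive one, both without the histone that the complex deposits.

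The arrays report RMA values on the log2 scale for 5498 probe sets that pair with a single S. cerevisiae gene. The median array value was 9.72 to 9.74 in htz1Δswr1Δ and 9.72 to 9.77 in htz1Δswc5Δ, and the median SD between arrays was 0.0682 and 0.117. The arrays also hold probe sets for a second yeast species, 95% of which lay under 3.79, and 98.6% of the tested probe sets had a mean above that background level. The signals of SWR1, SWC5 and HTZ1, the genes that the labels name as deleted, matched the labels. SWR1 was at 2.23, 3.02 and 2.69 in htz1Δswr1Δ and at 10.11, 10.16 and 10.07 in htz1Δswc5Δ. SWC5 was at 7.59, 7.64 and 7.76 in htz1Δswr1Δ and at 2.5, 2.99 and 2.67 in htz1Δswc5Δ. Against the background level these signals differed at least 80.1-fold and 14.6-fold. LYS2, the aminoadipate reductase gene of lysine synthesis, is not named in the labels. It was at 10.68, 10.95 and 10.95 in htz1Δswr1Δ and at 3.37, 3.94 and 2.95 in htz1Δswc5Δ. HTZ1 lay under the background level on all 6 arrays. Of the marker genes, HIS3 was bright in both strains (means 11.17 in htz1Δswc5Δ and 11.19 in htz1Δswr1Δ). LEU2 stood above the background level (4.27 and 4.44). Neither differed between the strains, and what these probe sets read in his3Δ1 and leu2Δ0 cells was not tested. None of the 4 MATalpha marker probe sets was called between the strains. Of the 7 MATa markers BAR1 (-0.41) and the a-factor exporter STE6 (-0.23) were lower in htz1Δswc5Δ (28.6%, beside 8.66% of all probe sets). Both lost their call when certain single arrays of the double mutants were left out.

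All differences below are htz1Δswc5Δ minus htz1Δswr1Δ on the log2 scale, from a limma fit with Benjamini-Hochberg adjustment over the 5498 probe sets, and a gene is said to be higher or lower where its adjusted p was under 0.05. On that count 678 probe sets (12.3% of those tested) were higher in htz1Δswc5Δ and 476 (8.66%) were lower, together 21%. The changes were small. The median change was 1.28-fold among the higher and 1.29-fold among the lower, and 964 of the 1154 called probe sets (83.5%) changed less than 1.5-fold. Over 2-fold, 17 were higher (0.309%) and 12 lower (0.218%), or 16 and 10 without SWR1, SWC5 and LYS2. Leaving out 1 of the 6 arrays at a time lowered the calls to as few as 319 higher and 237 lower, without htz1Δswr1Δ replicate 3, and raised them to as many as 899 and 583, without htz1Δswc5Δ replicate 3. The counts were 383 and 301 without htz1Δswr1Δ replicate 2, and 370 and 282 without htz1Δswc5Δ replicate 2. A core of 458 probe sets (39.7% of those called), 255 higher and 203 lower, passed the threshold each time, and genes in it are described as stable below. Scaling bore on the balance: 58.8% of the calls were higher in htz1Δswc5Δ as deposited, 52.1% after median centring and 45.6% after quantile normalization of the 15 arrays. The other strains give the scale of the contrast within the same fit, with arrays shared between the counts: htz1Δ against wt called 1396 higher and 1550 lower, htz1Δswc2Δ against htz1Δswr1Δ 764 and 486, and htz1Δswc5Δ against htz1Δswc2Δ 3 and 4.

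**Figure D1:**
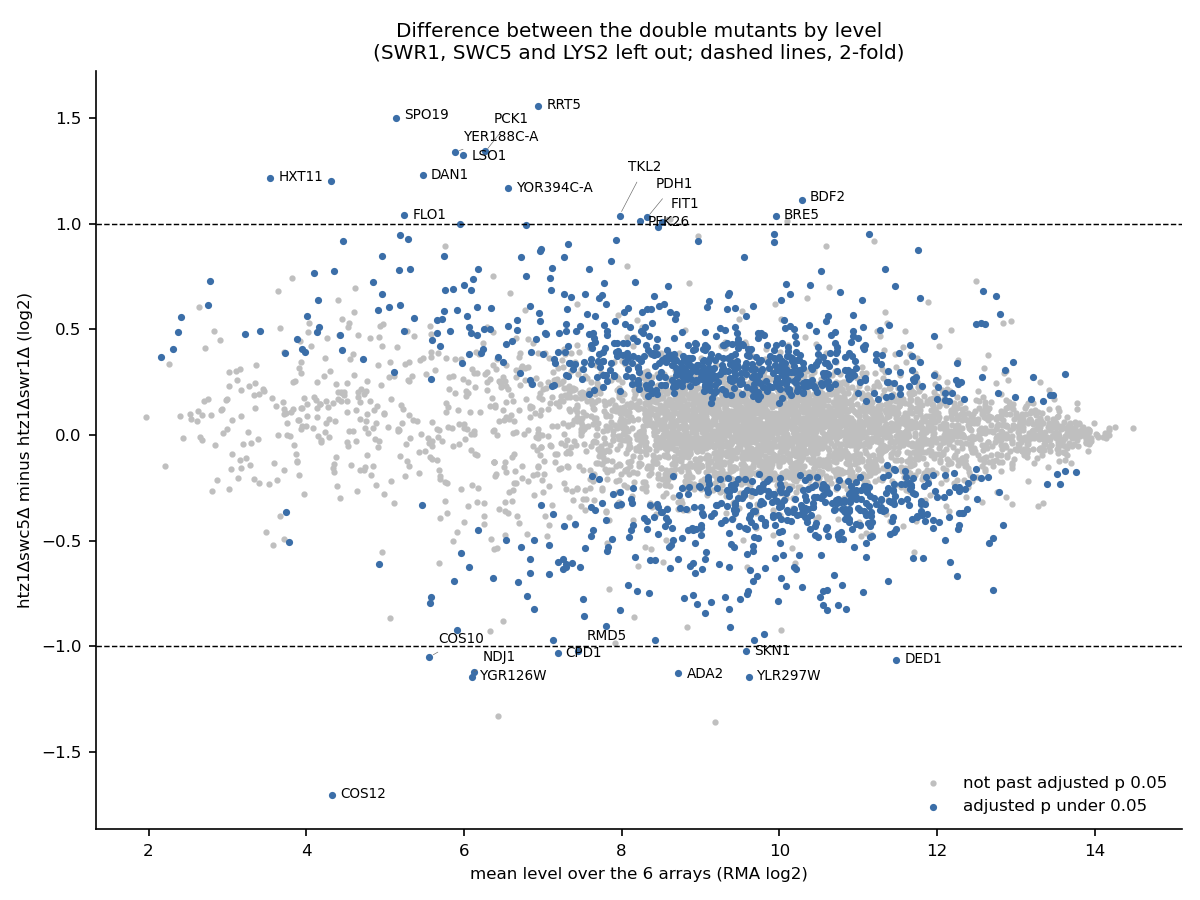
Log2 difference (htz1Δswc5Δ minus htz1Δswr1Δ, vertical axis) against the mean RMA log2 level over the 6 arrays (horizontal axis) for each tested probe set, without SWR1, SWC5 and LYS2. Blue points have an adjusted p under 0.05; most lie between the dashed 2-fold lines, and the genes named beyond them include COS12 at -1.70 and RRT5 at 1.56.

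Among the genes over 2-fold higher in htz1Δswc5Δ, BDF2, BRE5 and PFK26 had the lowest adjusted p after SWR1, and all were stable. BDF2, which encodes a bromodomain protein and is the paralog of the SWR1 subunit gene BDF1, was at 10.04, 9.56 and 9.59 in htz1Δswr1Δ and at 10.7, 10.78 and 11.05 in htz1Δswc5Δ, a difference of 1.11 (SE 0.13, adjusted p 0.000225). The groups did not overlap, as was so for 38.6% of all tested probe sets, and wt (mean 10.56), htz1Δ (10.74) and htz1Δswc2Δ (10.80) lay with htz1Δswc5Δ. BRE5, the cofactor of the ubiquitin protease Ubp3, was at 9.41, 9.34 and 9.57 in htz1Δswr1Δ and at 10.31, 10.53 and 10.57 in htz1Δswc5Δ (1.04, SE 0.10, adjusted p 8.69e-05). Here the htz1Δswr1Δ arrays stood at the wt level (mean 9.38) and htz1Δswc5Δ at that of htz1Δswc2Δ (10.41), with htz1Δ also above wt (10.16). PFK26, a kinase that makes the glycolytic regulator fructose 2,6-bisphosphate, was at 7.8, 7.8 and 7.57 against 8.65, 8.97 and 8.57 (1.01, SE 0.11, adjusted p 0.000149). The wt mean of 8.54 was again near htz1Δswc5Δ.

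Other stable genes over 2-fold higher in htz1Δswc5Δ were mostly dim. The flocculin gene FLO1 was at 4.83, 4.66 and 4.67 in htz1Δswr1Δ and at 5.43, 6.02 and 5.83 in htz1Δswc5Δ (1.04, SE 0.15, adjusted p 0.00101). YER188C-A was at 5.27, 5.24 and 5.13 against 6.04, 6.42 and 7.21 (1.34, SE 0.20, adjusted p 0.00101). For both genes the htz1Δswr1Δ arrays lay below those of every other strain in the fit, with wt means of 5.80 and 6.46. HXT11, a hexose transporter gene, lay under the background level on all 3 htz1Δswr1Δ arrays and averaged 4.15 in htz1Δswc5Δ and in wt, a difference of at least 1.28-fold (adjusted p 0.00353). YOR394C-A (1.17, adjusted p 0.000396) and PDH1 (1.03, adjusted p 0.00543), which acts in propionate breakdown, complete this group. FLO1, HXT11 and YOR394C-A have close relatives elsewhere in the genome, and their probe sets may read more than 1 copy.

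Among the genes over 2-fold lower in htz1Δswc5Δ, DED1, the RNA helicase of translation initiation, had the lowest adjusted p after SWC5 and LYS2. It was at 12.05, 11.97 and 12.02 in htz1Δswr1Δ and at 10.88, 10.89 and 11.08 in htz1Δswc5Δ, a difference of -1.06 (SE 0.09, adjusted p 3.74e-05). The wt (mean 10.52), htz1Δ (10.94) and htz1Δswc2Δ (10.73) arrays lay near htz1Δswc5Δ, and htz1Δswr1Δ stood alone above them. SKN1, a gene of cell wall beta-glucan synthesis, was at 10.15, 10.08 and 10.02 in htz1Δswr1Δ and at 8.82, 9.18 and 9.18 in htz1Δswc5Δ (-1.02, SE 0.13, adjusted p 0.000434). CPD1, a cyclic phosphodiesterase gene, was at 7.45, 7.89 and 7.76 against 6.78, 6.75 and 6.48 (-1.03, SE 0.20, adjusted p 0.00489). Both genes were near their wt means (8.98 and 6.59) in htz1Δswc5Δ and above them in htz1Δswr1Δ.

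For another set of stable genes the htz1Δ strain stood further away from wt. To a lesser degree it also did so in BRE5 (htz1Δ minus wt 0.78), SKN1 (0.59), PFK26 (0.48) and DED1 (0.42), described above. MET13, a methylenetetrahydrofolate reductase gene of methionine synthesis, was at 10.16, 10.39 and 10.28 in htz1Δswr1Δ and at 9.33, 9.27 and 9.41 in htz1Δswc5Δ (-0.94, SE 0.15, adjusted p 0.00149). Its mean was 8.92 in wt and 10.92 in htz1Δ, so that htz1Δswc5Δ was the nearer of the double mutants to wt. RMD5, a subunit of the GID ubiquitin ligase that degrades gluconeogenic enzymes, was at 7.9, 8.03 and 7.95 against 7.24, 6.49 and 7.07 (-1.02, SE 0.17, adjusted p 0.00197), with 7.2 in wt and 8.03 in htz1Δ. ADA2, an adaptor of the SAGA histone acetyltransferase complex, averaged 5.50 in wt and 8.58 in htz1Δ. It was at 9.41, 9.27 and 9.16 in htz1Δswr1Δ and at 8.48, 8.36 and 7.63 in htz1Δswc5Δ (-1.13, SE 0.21, adjusted p 0.00396), above wt in both. OPT2, an oligopeptide transporter gene (-0.97, adjusted p 0.00676), MMP1, the S-methylmethionine permease gene (-0.97, adjusted p 0.00514), YLR297W (-1.14, adjusted p 0.0063) and YGR126W (-1.14, adjusted p 0.00898) were also stable and lower, without overlap of the groups. NDJ1, a meiotic telomere protein gene, was stable and lower as well (-1.12, adjusted p 0.00981), but its means in wt (5.95) and htz1Δ (5.72) did not pass the test. The MMP1 call was lost when all 24 arrays were fitted together.

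**Figure D2:**
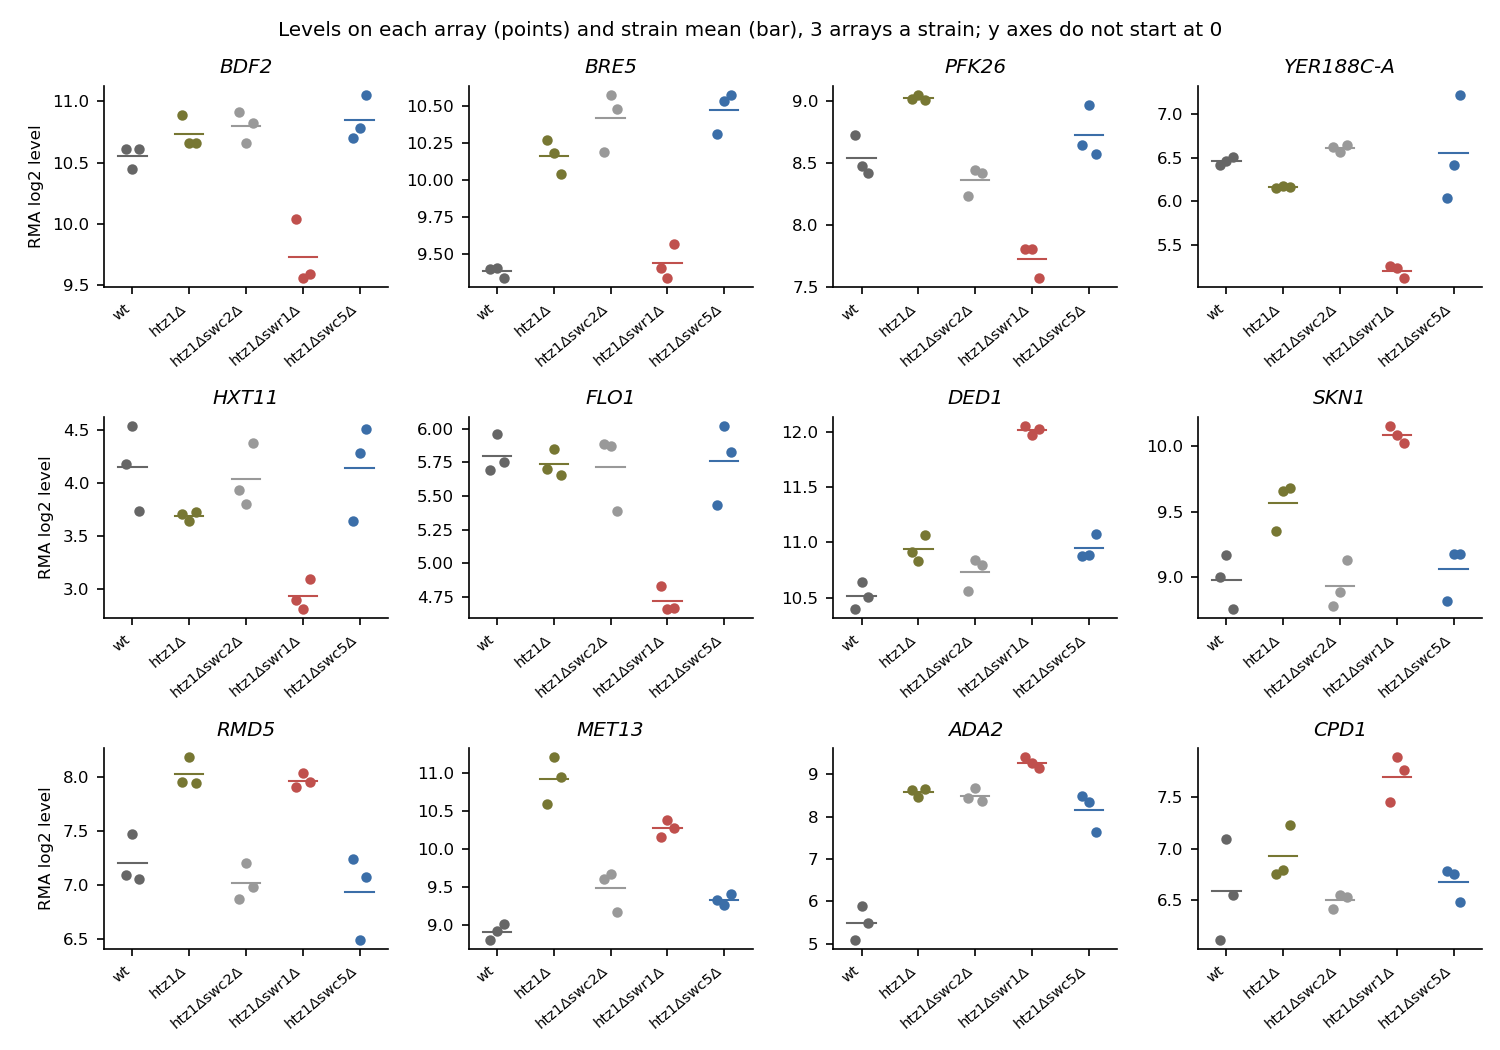
RMA log2 level (vertical axes, not starting at 0) of 12 stable genes on each of the 15 arrays of the fit, by strain (horizontal axes); points are arrays and bars are strain means, 3 arrays a strain. For BDF2, BRE5, PFK26, YER188C-A, HXT11 and FLO1, htz1Δswr1Δ (red) lies below htz1Δswc5Δ (blue), with BDF2 at 9.56 to 10.04 against 10.7 to 11.05. For DED1, SKN1, RMD5, MET13, ADA2 and CPD1 it lies above, with DED1 at 11.97 to 12.05 against 10.88 to 11.08.

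The remaining named genes lost their call when some single array of the double mutants was left out, and several had the largest differences. COS12, of the subtelomeric COS family, was at 5.45, 4.63 and 5.46 in htz1Δswr1Δ and under the background level on all htz1Δswc5Δ arrays, at least 2.61-fold lower (difference -1.70, adjusted p 0.0277). It was the lowest value of the comparison after the deleted genes, and its call was lost without any 1 of 4 arrays (adjusted p up to 0.0947). RRT5 was at 7.09, 5.4 and 5.99 against 7.84, 7.22 and 8.09 (1.56, SE 0.43, adjusted p 0.0229). SPO19, a meiosis-specific gene of the prospore membrane, was at 5.07, 3.91 and 4.19 against 6.45, 5.41 and 5.81 (1.5, SE 0.41, adjusted p 0.0213). Both spread over more than 1 log2 unit among the htz1Δswr1Δ arrays, and both were also spread in wt. PCK1, phosphoenolpyruvate carboxykinase of gluconeogenesis, was at 5.59, 5.64 and 5.55 in htz1Δswr1Δ and at 5.96, 8.27 and 6.59 in htz1Δswc5Δ (1.34, SE 0.40, adjusted p 0.0328). DAN1, a cell wall mannoprotein gene of anaerobic growth, was at 5.12, 4.94 and 4.52 against 5.38, 7.11 and 5.78 (1.23, SE 0.36, adjusted p 0.0289). In both genes replicate 2 of htz1Δswc5Δ stood far above the other arrays of the double mutants, and the DAN1 call was lost without it. PCK1 averaged 7.59 in wt. Against wt it was lower in htz1Δswr1Δ (-1.99, adjusted p 0.00234) and not called in htz1Δswc5Δ (-0.65, adjusted p 0.225). LSO1 (1.32), TKL2 (1.04), FIT1 (1.01), COS10 (-1.05), FMP48 (-0.97) and the SWR1 subunit gene SWC7 (-0.92) likewise did not overlap between the strains and were not stable. YGL188C-A, named here after its values were seen, was called over 2-fold higher (1.2) although its groups overlapped.

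Of 21 genes of iron uptake, 7 were higher in htz1Δswc5Δ (33.3%, beside 12.3% of all probe sets) and none lower. This regulon, driven by Aft1 when iron is scarce, holds siderophore transporters, surface reductases and cell wall mannoproteins that bind siderophores. None of the 21 members measured had a difference below 0, with a list median of 0.62 beside 0.045 over all tested probe sets. Only FRE2 and FRE3 were stable, and leaving out single arrays of the double mutants compared gave 2 to 5 members called. A culture of another strain showed the same levels: replicate 3 of htz1Δswc2Δ lay above both other htz1Δswc2Δ arrays in 20 of the 21 members and at or above the lowest htz1Δswc5Δ array in 18. The median level of the members was 10.63 on that array, 9.67 and 9.78 on the others of its strain, 10.53 to 10.72 in htz1Δswc5Δ and 9.95 to 10.09 in htz1Δswr1Δ. Without that array, which adds to the spread used by the fit, 14 members were called higher and none lower. What set this culture apart was not tested. The surface reductase gene FRE2 was at 6.81, 6.79 and 6.7 in htz1Δswr1Δ and at 7.41, 7.48 and 7.47 in htz1Δswc5Δ (0.69, SE 0.08, adjusted p 0.000361). FRE3 was at 7.44, 7.56 and 7.38 against 8.16, 8.46 and 8.22 (0.82, SE 0.20, adjusted p 0.0118). In both, htz1Δswc5Δ lay above wt (means 6.89 and 7.43), while htz1Δswr1Δ lay near it. The htz1Δswc2Δ arrays were at 6.87, 6.89 and 7.21 for FRE2 and at 7.21, 7.2 and 8.17 for FRE3, so that replicate 3 reached htz1Δswc5Δ in FRE3.

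The mannoprotein gene FIT1 was at 7.97, 8.00 and 8.07 in htz1Δswr1Δ and at 8.92, 8.80 and 9.35 in htz1Δswc5Δ (1.01, SE 0.28, adjusted p 0.023). The siderophore transporter gene SIT1 was at 10.72, 10.71 and 10.54 against 11.53, 11.71 and 11.6 (0.95, SE 0.32, adjusted p 0.0479). In htz1Δswc2Δ the arrays were at 7.56, 7.55 and 8.82 for FIT1 and at 10.24, 10.33 and 11.47 for SIT1. SIT1 lost its call when any 1 of the 6 arrays was left out. LSO1, a short gene that also responds to iron scarcity and stands outside the list, was at 5.41, 5.59 and 4.99 against 6.24, 6.79 and 6.94. Members that did not pass included ARN2 (0.92, adjusted p 0.0838), FIT2 (0.73, adjusted p 0.156) and the ferroxidase gene FET3 (0.26, adjusted p 0.363); of these, ARN2 and FIT2 passed without replicate 3 of htz1Δswc2Δ.

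Genes of sulfate assimilation and methionine went the other way. Of 23 members, none was higher and 7 were lower (30.4%, beside 8.66% of all probe sets), with a median of -0.27. MET13, MMP1 and the high-affinity methionine permease gene MUP1 were stable. MUP1 was at 12.5, 12.46 and 12.49 in htz1Δswr1Δ and at 11.98, 11.84 and 12.3 in htz1Δswc5Δ (-0.45, SE 0.09, adjusted p 0.00491). The sulfate permease gene SUL2 (-0.77, adjusted p 0.0161) and the cystathionine beta-lyase gene STR3 (-0.75, adjusted p 0.0187) were lower but not stable. SUL2 averaged 8.11 in wt and 9.41 in htz1Δswc2Δ. Its htz1Δswc5Δ arrays were at 8.43, 8.03 and 8.75 and those of htz1Δswr1Δ averaged higher, so that htz1Δswc5Δ lay nearer to wt than htz1Δswr1Δ. Both strains carry met15Δ0, and MET17, the gene it deletes, lay under the background level in both.

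Of the 10 lysine synthesis members LYS2 alone was called. LYS9 (-0.15), LYS1 (-0.02) and LYS20 (0.12) had standard errors of 0.40, 0.41 and 0.39, so that small changes were not detectable in them. Arginine synthesis (7 members, median 0.27) had no call. Among 36 genes of other amino acid pathways SER3 was higher and ILV5 lower (together 5.56%, beside 21% of all probe sets), and only SER3 was stable. Phosphate starvation genes had 2 lower members of 15 (13.3%, beside 8.66% of all probe sets). The phosphate transporter gene PHO84 showed -1.36 with SE 0.63 and adjusted p 0.139.

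Subtelomeric and cell wall families differed in both directions. Of 8 COS probe sets, 5 were lower in htz1Δswc5Δ (62.5%, beside 8.66% of all probe sets) and none higher (median -0.32). They were COS12, COS10, COS7 (-0.55), COS9 (-0.33) and COS6 (-0.30), of which COS9 and COS6 were stable. COS6 was at 10.38, 10.3 and 10.37 in htz1Δswr1Δ and at 10.01, 10.05 and 10.08 in htz1Δswc5Δ. COS genes are near-identical copies that encode membrane proteins of endosomal sorting, so the probe sets may not separate them. In the DAN and TIR list of anaerobic cell wall mannoproteins, 6 of 9 probe sets were higher and 1 lower (median 0.43), none of them stable. Together these were 77.8% of the list, beside 21% of all probe sets. TIR4 rose by 0.60, DAN4 by 0.43 and TIR3 by 0.43. The 2 probe sets of PAU23 disagreed (-0.37 and 0.24), and no member was called without htz1Δswr1Δ replicate 3.

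Meiosis and sporulation genes, which mitotic cells keep low, had 10 of 36 probe sets higher (27.8%, beside 12.3% of all) and none lower (median 0.29), and 6 were stable. NDJ1, a meiotic gene outside this list, was lower, as given above. IME4, the mRNA methyltransferase gene that promotes entry into meiosis, was at 4.52, 4.55 and 4.55 in htz1Δswr1Δ and at 5.34, 5.3 and 5.51 in htz1Δswc5Δ (0.85, SE 0.18, adjusted p 0.00759). ZIP1, a synaptonemal complex gene (0.59, adjusted p 0.00916), and the recombination gene REC104 (0.51, adjusted p 0.00239) were also stable. These levels lie in the lower part of the array's range, where the whole population of probe sets leaned the same way: the median difference was 0.149 for probe sets with a mean level from 4 to 6 and 0.019 for those above 10. After quantile normalization the median of this list was 0.18 and 6 members were called.

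**Figure D3:**
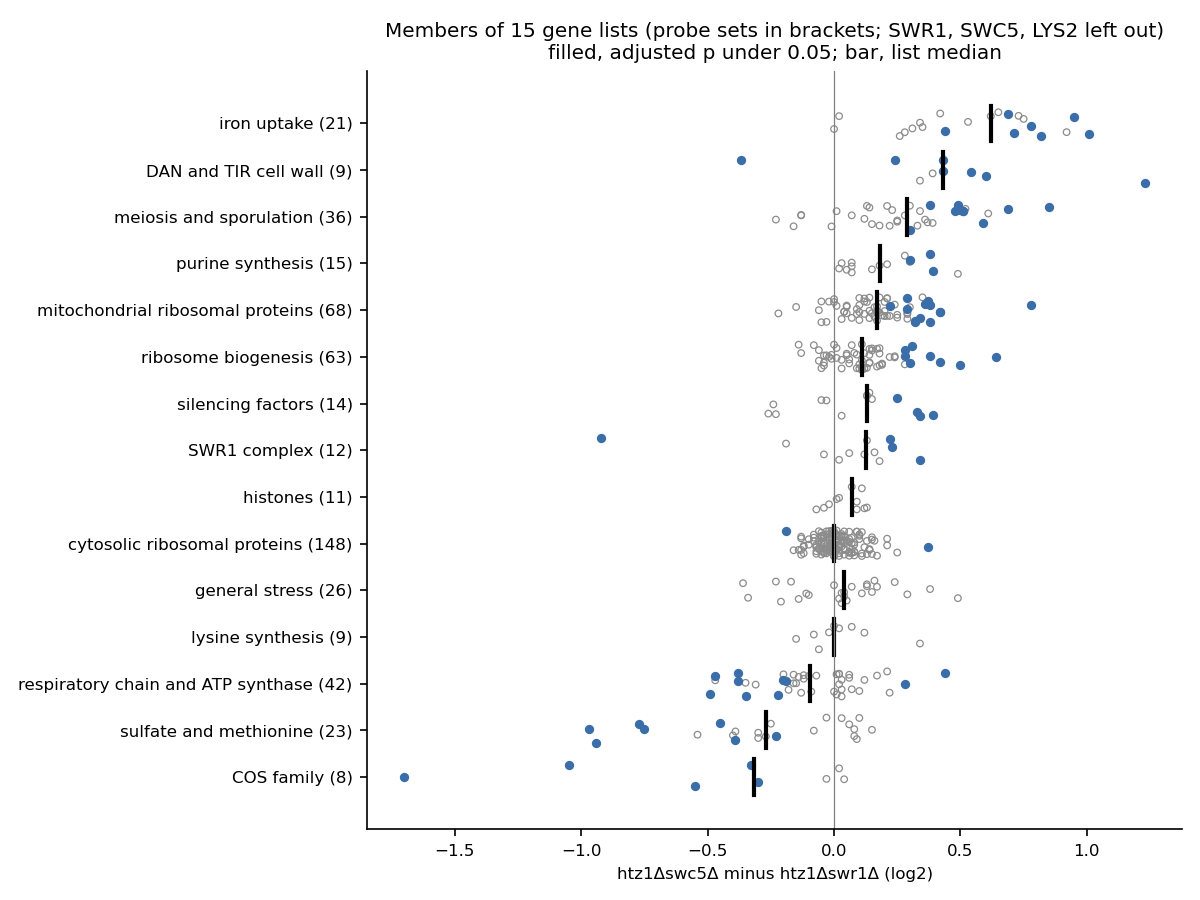
Log2 difference (htz1Δswc5Δ minus htz1Δswr1Δ, horizontal axis) of the members of 15 gene lists (vertical axis, probe sets in brackets), without SWR1, SWC5 and LYS2. Filled points have an adjusted p under 0.05 and bars are list medians; iron uptake lies to the right at a median of 0.62 and the COS family to the left at -0.32, with cytosolic ribosomal proteins at 0.

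Among bright genes, 13 of 68 mitochondrial ribosomal protein probe sets were higher (19.1%, beside 12.3% of all probe sets) and none lower (median 0.17). The count of higher ones ranged from 2 to 26 with 1 array left out, the lowest without htz1Δswr1Δ replicate 3. MRPS16 was the clearest, at 10.24, 10.06 and 10.11 in htz1Δswr1Δ and at 10.83, 10.97 and 10.94 in htz1Δswc5Δ (0.78, SE 0.10, adjusted p 0.000547). Its wt mean was 10.85, with htz1Δswr1Δ below. Ribosome biogenesis genes had 8 of 63 higher (12.7%, near the 12.3% of all probe sets) and none lower (median 0.11), with NOP53 at 0.64 and RRP14 at 0.50, both stable. The respiratory chain and ATP synthase list had 2 higher and 8 lower of 42 (together 23.8%, beside 21% of all probe sets), with a median of -0.09. Among them the cytochrome c oxidase subunits COX4 (-0.49), COX5A (-0.47) and COX6 (-0.35) were lower and the complex III subunit COR1 (0.44) was higher, all stable. The 148 cytosolic ribosomal protein probe sets had 1 call in each direction (together 1.35%, beside 21% of all probe sets), and their median was 0.00.

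In the lists of SWR1 and INO80 subunits, histones and silencing factors, the called members other than SWR1, SWC5 and SWC7 changed less than 1.5-fold; BDF2 and ADA2, described above, stand outside these lists. Apart from SWR1 and SWC5, the SWR1 complex list had SWC3 (0.34), SWC4 (0.23) and BDF1 (0.22) higher and SWC7 (-0.92) lower, and only SWC3 of these was stable. With SWR1 and SWC5 counted, 42.9% of this list was called, beside 21% of all probe sets. SWC7 was at 6.45, 6.26 and 6.4 in htz1Δswr1Δ and at 5.23, 5.56 and 5.54 in htz1Δswc5Δ, against 4.90 in wt. None of the 11 histone probe sets was called, and their differences ran from -0.07 to 0.13. Of 14 silencing factors, SIR1 (0.39), ESC1 (0.34), the histone deacetylase gene SIR2 (0.33) and SIR4 (0.25) were higher (28.6%, beside 12.3% of all probe sets), and only SIR2 was stable. The INO80 complex, a related remodeller, had 2 members higher and 1 lower of 11 (together 27.3%, beside 21% of all probe sets), none stable.

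Other lists gave few calls. No gene of the 26 in the general stress list and no gene of the 6 for galactose use was called. Among 24 heat shock genes only HSP26 was (0.66, adjusted p 0.019), 4.17% of that list beside 21% of all probe sets. Of the hexose transporters, HXT11 was higher, and HXT4 (-0.71) and HXT7 (-0.67, stable) were lower, together 15.8% of 19 probe sets, beside 21% of all. HXT7 was at 12.66, 12.57 and 12.52 in htz1Δswr1Δ and at 12.04, 11.76 and 11.95 in htz1Δswc5Δ, and its probe set may also read the near-identical HXT6. Purine synthesis had 3 of 15 higher (20%, beside 12.3% of all probe sets). Nitrogen source use had 3 higher and 2 lower of 24, the mating pheromone response 2 and 2 of 22, and the proteasome 3 and 2 of 34. These were 20.8%, 18.2% and 14.7% of the 3 lists, none above the 21% of all probe sets. Single calls fell in the zinc (ZRT2, -0.35), inositol (INO2, -0.53), drug transport (TPO1, 0.42) and DNA damage (MAG1, 0.39) lists. These lists held 6, 10, 9 and 13 probe sets. The shares called were 16.7%, 10%, 11.1% and 7.69%, each under the 21% of all probe sets.

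Genes that htz1Δ itself changes were compared next, since the htz1Δ and wt arrays are not among those of the double mutants. In the same fit 118 probe sets were over 2-fold higher in htz1Δ than in wt (2.15% of those tested) and 195 over 2-fold lower (3.55%). Of the 118, 10 were higher in htz1Δswc5Δ (8.47%) and 15 lower (12.7%, LYS2 included), with a median difference of -0.021. Of the 195, 22 were higher (11.3%) and 24 lower (12.3%), with a median of 0.03. Over all probe sets 12.3% were higher and 8.66% lower, whereas among the up genes lower calls were the more numerous. The order of the counts in the down genes was not settled. Without htz1Δswc5Δ replicate 1, 18 were higher and 10 lower, and with all 24 arrays fitted as deposited the counts were 19 and 19. After quantile normalization the 139 genes then down in htz1Δ had 6 higher and 25 lower, with a median of -0.107, and the 137 up had 10 and 20, with a median of -0.077. The double mutants had these genes at like distances from wt: the up genes had a median of 1.26 above wt in htz1Δ, 0.40 in htz1Δswc5Δ and 0.37 in htz1Δswr1Δ, and the down genes -1.42, -0.82 and -0.83. The htz1Δ medians follow from the 2-fold rule that chose the genes, and all these distances use the same wt arrays as that rule.

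Single genes nevertheless differed. SLS1, a mitochondrial membrane protein gene up in htz1Δ, was at 6.4, 6.57 and 6.63 in htz1Δswr1Δ and at 7.25, 7.24 and 7.76 in htz1Δswc5Δ (0.88, SE 0.12, adjusted p 0.000862), with 6.82 in wt and 7.83 in htz1Δ. PDR12, a weak acid exporter gene up in htz1Δ, went the other way, at 11.16, 10.91 and 10.8 against 10.03, 10.29 and 10.14 (-0.80, SE 0.15, adjusted p 0.00375), with 9.75 in wt and 11.45 in htz1Δ. So SLS1 was nearer to wt in htz1Δswr1Δ, and PDR12 in htz1Δswc5Δ. AGP2, a plasma membrane carnitine transporter gene, was lower in htz1Δswc5Δ (-0.84, adjusted p 0.00437), and like SLS1 and PDR12 it was stable; GPD2 (0.70), GIP2 (0.71), APE1 (0.68) and the Ty element gene YAR009C (0.95), a repeat with many copies, were higher and not stable. Among genes down in htz1Δ, the isomaltase gene IMA3, which has near-identical relatives, was at 5.01, 5 and 4.46 against 5.77, 5.97 and 5.51 (0.93, SE 0.15, adjusted p 0.00172) and the meiotic phospholipase gene SPO1 at 4.07, 3.57 and 3.5 against 4.4, 4.71 and 4.35 (0.77, SE 0.15, adjusted p 0.00448). Both were further below their wt means (6.68 and 5.87) in htz1Δswr1Δ.

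**Figure D4:**
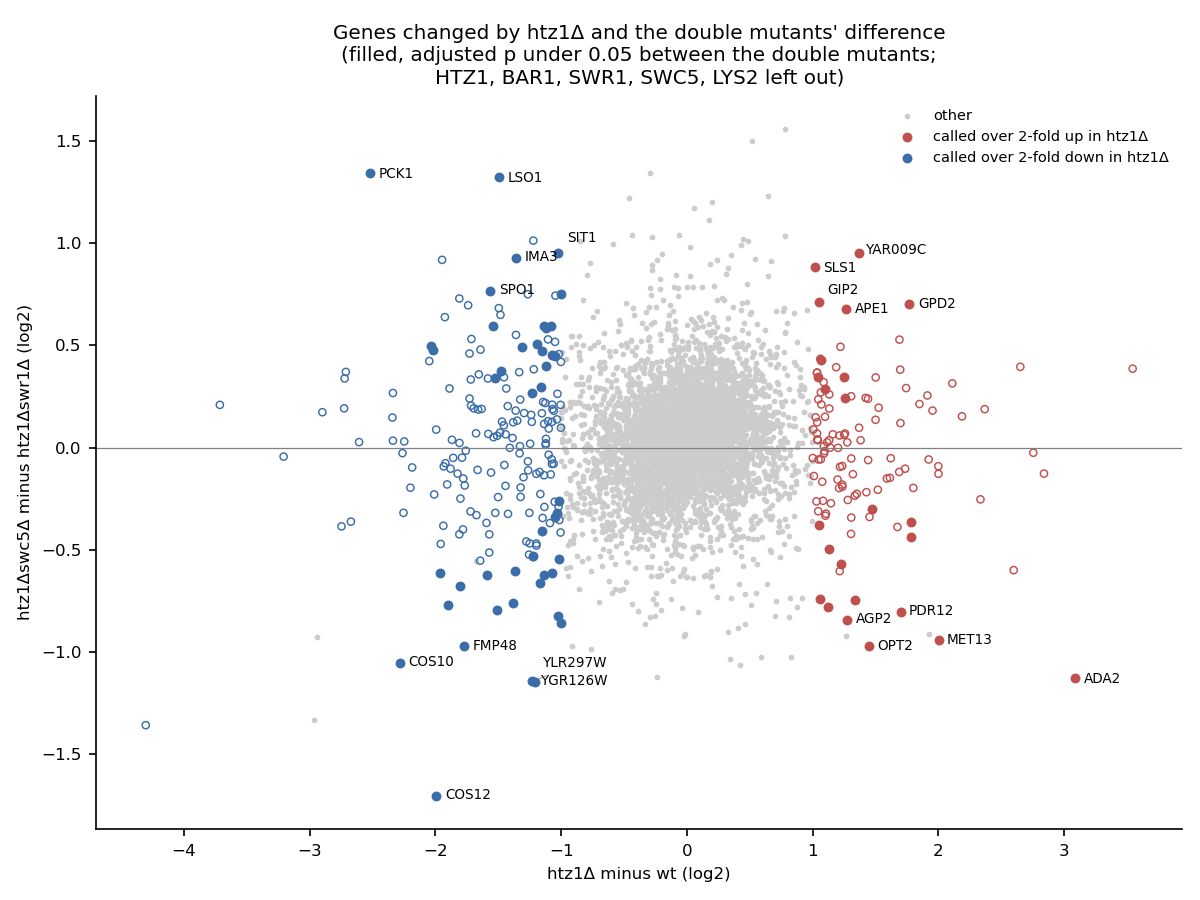
Log2 difference htz1Δ minus wt (horizontal axis) against htz1Δswc5Δ minus htz1Δswr1Δ (vertical axis) for each tested probe set, without HTZ1, BAR1, SWR1, SWC5 and LYS2. Red and blue points were called over 2-fold up or down in htz1Δ and are filled where the double mutants differed at an adjusted p under 0.05; both colours spread about 0, with medians of -0.021 and 0.03 in the full sets.

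By position, 390 probe sets belong to the 15 outermost protein-coding genes of a chromosome arm. Of these 60 were higher (15.4%) and 38 lower (9.74%), with a median of 0.067, beside 12.1%, 8.58% and 0.044 among the 5105 at other positions. PCK1, YER188C-A, DAN1, HXT11, YOR394C-A, FLO1 and FIT1, 7 of the 17 genes over 2-fold higher (41.2%), are in this outer set, as are COS12 and COS10, 2 of the 12 over 2-fold lower (16.7%). The outer set holds 7.1% of the 5495 probe sets with a position. The chromosome medians ran from 0.02 to 0.084. Beside the loci that differ between the strains, TKL2, a transketolase gene that follows LYS2 in gene order, was at 7.58, 7.44 and 7.35 in htz1Δswr1Δ and at 8.59, 8.74 and 8.16 in htz1Δswc5Δ (1.04, SE 0.28, adjusted p 0.0202), and whether the lys2Δ0 deletion bears on it was not tested. Within 3 genes of SWR1, GPI8 was lower (-0.63), and within 3 genes of LYS2, SUS1 was higher (0.60). SUS1 averaged 8.68 in htz1Δswc5Δ, 8.79 in wt, 8.92 in htz1Δ and 8.8 in htz1Δswc2Δ, so that htz1Δswr1Δ at 8.08 was the low strain. Within 3 genes of SWC5, PBP2, the next gene, was higher (0.40, adjusted p 0.00506) and ROT2 lower (-0.29, adjusted p 0.0443). Beside HTZ1, deleted in both strains, HRD1 (-0.39) and PLB3 (-0.25) were lower. The other genes measured within 3 genes of these loci were not called, and 21% of all probe sets were.

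The same pair of deletions was also profiled with HTZ1 present, in the strains swc5Δ and swr1Δ, whose arrays were mapped by rank onto the level of the other strains for this comparison. In them 644 probe sets were higher in swc5Δ (11.7%) and 552 lower (10%). Across 5495 probe sets, which are not independent replicates, the differences with and without HTZ1 had Pearson's r = 0.465 and Spearman's rho = 0.493. Of 677 called higher in htz1Δswc5Δ, 590 had the same sign in the single mutants, 302 were called in the same direction and 13 in the opposite one. Of 474 called lower, 426 had the same sign, 211 were called in the same direction and none in the opposite one. BDF2 (1.54 in the single mutants), BRE5 (0.98), YER188C-A (1.93), HXT11 (1.54), DED1 (-1.09), SKN1 (-0.75) and CPD1 (-0.93) were among those called both ways.

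A difference of the differences, called at an adjusted p under 0.05 in 71 probe sets (1.29%), marked genes whose contrast changed with HTZ1. It was more positive without HTZ1 in 56 and more negative in 15. Replicate 1 of swc5Δ bore heavily on this count: without it 383 and 362 were called. With any other array of the 4 strains left out, 24 to 84 and 5 to 28 were called. From the iron uptake list of 21 members, only FIT1, FIT3, ARN2 and FRE2 were among them, each with opposite signs with and without HTZ1. ARN2 and FIT3 were not called between the double mutants (adjusted p 0.0838 and 0.212). SIT1 stood at -0.01 with HTZ1, and its difference of the differences did not pass (adjusted p 0.394). FIT1 fell by 1.58 in swc5Δ against swr1Δ and was 1.01 higher in htz1Δswc5Δ against htz1Δswr1Δ, a difference of 2.59 (SE 0.44, adjusted p 0.00626). LSO1 fell by 1.6 and was 1.32 higher (2.92, SE 0.53, adjusted p 0.00886), and the siderophore transporter gene ARN2 fell by 1.95 and stood at 0.92 (2.87, SE 0.59, adjusted p 0.0182). TKL2 also had opposite signs, -1.38 and 1.04 (2.42, SE 0.41, adjusted p 0.00626). Since htz1Δswc5Δ alone of these 4 strains carries lys2Δ0, an effect of HTZ1 and one of LYS2 cannot be told apart here.

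**Figure D5:**
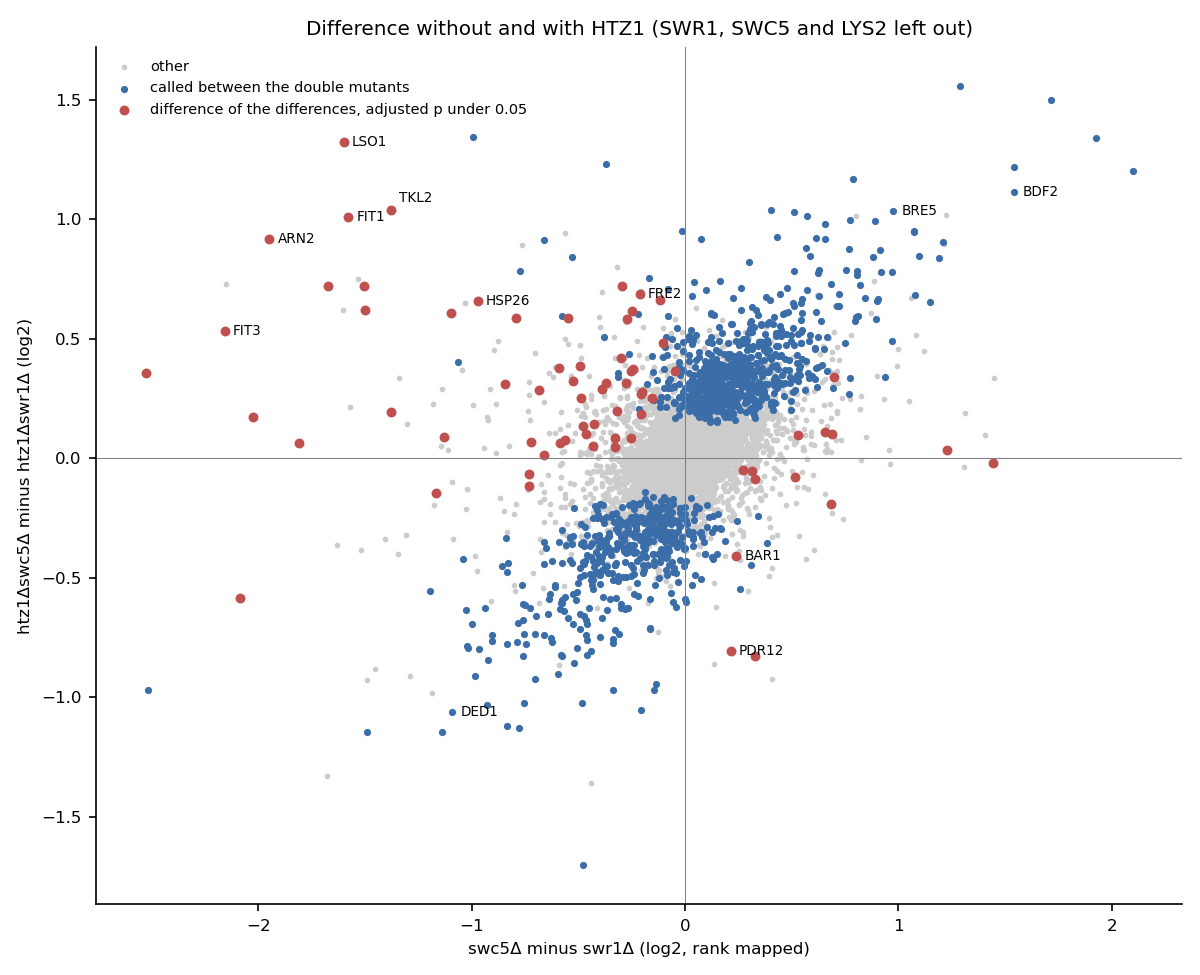
Log2 difference swc5Δ minus swr1Δ (horizontal axis, rank mapped) against htz1Δswc5Δ minus htz1Δswr1Δ (vertical axis) for each tested probe set, without SWR1, SWC5 and LYS2. Blue points were called between the double mutants, and red points had an adjusted p under 0.05 for the difference of the differences; BDF2 and DED1 lie along the diagonal, and LSO1, FIT1, TKL2 and ARN2 lie at the upper left.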

How the data were processed

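The authors hybridised cRNA to Affymetrix Yeast Genome 2.0 arrays, captured signals with GCOS and deposited RMA values on the log2 scale, 1 value per probe set and array; the study's methods also name limma. Of 10928 probe sets, 5498 that the platform annotation pairs with 1 S. cerevisiae gene (5449 genes) were tested, and 1746 of the other species and 3684 without a single gene here were left out. The deposited log2 values of 15 arrays (5 strains at 1 deposited level) were fitted in R 4.3.3 with limma 3.58.1, 1 mean per strain, empirical Bayes, 10 residual degrees of freedom, and Benjamini-Hochberg adjustment over the 5498. The number of arrays limits the precision: the median SE of a difference was 0.0859. For the difference of the differences all 24 arrays were fitted, 9 of them mapped by rank onto the mean distribution of the 15.

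Genes named were the deleted genes, the 15 largest called differences in each direction without overlap between the groups, called members of gene lists (at most 6 a list, largest first), and the 5 largest called in each direction among genes changed by htz1Δ; further genes are values from the lists, the neighbours of deleted genes or the difference of the differences. The comparison, lists and rules were chosen with earlier results of these data known. Alternatives were the samples fitted, scaling, filters, moderation, the replicate number as a block, and leaving out each array. The arrays' processing batches are not given in the sources used here.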

Additional observations from a re-analysis of the deposited data

Results flagged for a closer look

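In 10 genes named above or in the iron uptake list, the difference between the swc5 and swr1 deletions changed with HTZ1 by the test of the difference of the differences (limma, 24 arrays, 9 of them rank mapped). The value was more positive without HTZ1 for LSO1 (2.92, adjusted p 0.00886), ARN2 (2.87, adjusted p 0.0182), FIT3 (2.69, adjusted p 0.00886), FIT1 (2.59, adjusted p 0.00626), TKL2 (2.42, adjusted p 0.00626), HSP26 (1.63, adjusted p 0.0152) and FRE2 (0.90, adjusted p 0.0284). It was more negative for LYS2 (-7.94, adjusted p 2.5e-07; htz1Δswc5Δ carries lys2Δ0), PDR12 (-1.02, adjusted p 0.0201) and BAR1 (-0.65, adjusted p 0.0371).

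After rank mapping FIT3 was at 12.53, 12.29 and 12.54 in swr1Δ and at 11.15, 9.82 and 9.93 in swc5Δ. The double mutants were at 12.76, 12.58 and 12.38 (htz1Δswr1Δ) and at 12.99, 13.22 and 13.11 (htz1Δswc5Δ). So swc5Δ was the low strain of the 4, and its replicate 1 stood above the other swc5Δ arrays. HSP26 was at 12.53, 12.25 and 12.28 in swr1Δ and at 12, 11.16 and 10.98 in swc5Δ, again with replicate 1 the highest. LYS2 was at 12.65 on replicate 1 of swc5Δ and at 10.65 and 10.63 on the other arrays of that strain.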

How the results depend on the processing

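Most calls were close to the threshold, and the spread of 3 arrays a strain limits them. Against 678 higher and 476 lower probe sets, fitting the 6 arrays of the double mutants alone gave 427 and 297. Fitting and adjusting over all probe sets of the array gave 395 and 308, and a 1.5-fold threshold left 101 and 89. Leaving out each of the 15 arrays gave 319 to 899 higher and 237 to 583 lower, and 7 to 28 higher and 8 to 16 lower over 2-fold. Quantile normalization gave 11 over 2-fold higher. Without the dimmest 25% there were 2 higher and 4 lower, since most genes over 2-fold were dim and were removed by that filter. Of the over 2-fold calls, 6 higher and 3 lower had a mean level from 4 to 6. A further 5 higher and 5 lower had one from 6 to 8. For genes up in htz1Δ, 3 to 11 were higher and 10 to 16 lower with an array left out, with medians from -0.075 to 0.026. Fitting and adjusting over all probe sets gave 6 higher. For genes down in htz1Δ, 9 to 29 were higher and 9 to 29 lower, with medians from -0.045 to 0.068. There quantile normalization gave 6 higher and a median of -0.107. Leaving out the dimmest 25% gave 4 higher and 8 lower of the 45 genes then down in htz1Δ. Fitting and adjusting over all probe sets gave 12 higher and 15 lower. The cause of these shifts was not tested. HTZ1, under the background level in both strains, changed sign with quantile normalization (-0.02). None of the other 105 differences followed through the alternatives changed sign, and 61 lost their call under at least 1. These 105 were deleted genes, the largest differences, genes changed by htz1Δ and the largest called members of each list. Other genes named in the text, such as MUP1, COS6, COX6 and GPI8, were not among them.

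The difference of the differences was the least settled result. It was called in 24 to 383 probe sets as more positive and 5 to 362 as more negative with an array left out. Quantile normalization of all 24 arrays gave 32 more positive, and the values as deposited gave 23 and 4728, since the deposited levels of the single mutants differ. LSO1, TKL2, FIT1, FIT3 and LYS2 passed under all 15 alternatives, and BAR1 and FRE2 each failed 10.

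The replicate numbers did not pair the samples: between the double mutants the deviations of same-numbered arrays correlated from -0.358 to 0.235, and not every array correlated best with its own number. With the replicate number as a block 710 were higher and 517 lower, and the difference of the differences was called in 71 and 25. None of the 105 differences followed through the alternatives lost its call with the block.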
